A study of Mus musculus with 18 samples.

Results

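The comparison described here set hepatocytes of Mtdh knockout (KO) mice that received conditioned medium (CM KO) against hepatocytes of the same genotype that received TNFa (TNFa KO). All genes of the deposited table were compared between the CM KO libraries 1 to 3 and the TNFa KO libraries 1 to 3 as log2(value + 1), so that 6 of the 18 libraries of the series entered directly. The medium had been conditioned by Kupffer cells, the resident macrophages of the liver, after those cells were treated with extracellular vesicles and particles (EVPs) of Py8119, a mouse mammary tumour line. Hepatocytes were taken from livers without tumours of age-matched KO and wild-type (WT) mice, and each genotype received CM, TGFb or TNFa, with 3 libraries per group. CM WT and TNFa WT hepatocytes, which carry intact Mtdh, gave the same contrast in the other genotype. TGFb KO hepatocytes, which share the genotype but received TGFb, were used for levels only. No group without treatment was analysed here, so a higher value in CM KO than in TNFa KO does not say which of these treatments moved a gene. The sources used here state no dose, treatment time, age in weeks, sex, tissue or promoter of the Mtdh removal, nor whether a library is 1 mouse or 1 culture, and p-values therefore measure the spread between libraries, which may be technical.

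TNFa is a cytokine that binds the receptors TNFR1 and TNFR2, activates the transcription factor NF-kappaB and the stress kinases, and in hepatocytes can either protect from death or drive it. NF-kappaB targets include chemokines, adhesion molecules and the inhibitors that switch the pathway off again. Conditioned medium of macrophages is a mixture whose content was not measured here and may itself hold TNFa. Mtdh (metadherin, also AEG-1) encodes a membrane and RNA-binding protein that is known in mouse liver for its links to NF-kappaB, to lipid metabolism and to tumour growth.

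Mtdh (ENSMUSG00000022255, chromosome 15, 34082840 to 34145770, plus strand, mm39) was low in both groups. Its normalized value was 747, 720 and 864 in the CM KO libraries and 749, 829 and 581 in the TNFa KO libraries, and the groups overlapped (log2 fold change 0.12 ± 0.11 SE, limma adjusted p = 0.548). In WT libraries the mean was 11443 with CM and 12831 with TNFa, so that all 6 KO libraries fitted their genotype label. Snd1, which encodes a known binding partner of the Mtdh protein, had a log2 fold change of 0.29 ± 0.12 (adjusted p = 0.124).

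CM KO and TNFa KO hepatocytes differed in 1835 of 14455 tested genes (12.7%, limma, Benjamini-Hochberg adjusted p below 0.05). Of these, 1211 (8.38% of the genes tested) were higher and 624 (4.32%) lower in CM KO. The higher genes included plasma proteins and the urea cycle, drug, bile acid and lipid enzymes of differentiated hepatocytes. Among the lower genes were 4 of 20 tested chemokines (1 was higher), the adhesion receptor gene Vcam1 and 15 of 62 interferon-stimulated genes (2 were higher). As deposited, the medians of the chemokine list and of the list of TNFa adhesion and effector genes were above 0 (0.11 and 0.31). Most differences were moderate, since 282 genes were called with more than a 2-fold difference, 218 higher and 64 lower, and the smallest called log2 difference was 0.239. Below, values after a gene are deposited normalized values per library, which are not divided by transcript length and so compare libraries, not genes. A gene rose or fell where its adjusted p was below 0.05, always CM KO relative to TNFa KO, and fold changes are on the log2(value + 1) scale with their standard error.

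Depth, estimated as the sum of the values divided by the value of 1 read, was 24200000 to 35600000 reads in CM KO and 20300000 to 29100000 in TNFa KO, and within-group correlations of log2 values over the series lay between 0.937 and 0.961. The composition of the groups differed. Albumin took 8.61 to 8.76% of all values in CM KO and 5.83 to 6.28% in TNFa KO, and the summed values were 23740000 to 24900000 in CM KO and 21640000 to 22110000 in TNFa KO. The split of the calls depended on it. When every library was scaled to an equal total, the median log2 difference of all genes moved to -0.173 against -0.019 as deposited, and the calls became 878 higher and 1906 lower, so that 31.5% of the called genes were higher against 66.0% as deposited. With quantile normalization 55.5% were higher. Counts under equal totals are therefore given beside the lists below, for CM KO against TNFa KO.

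**Figure D1:**
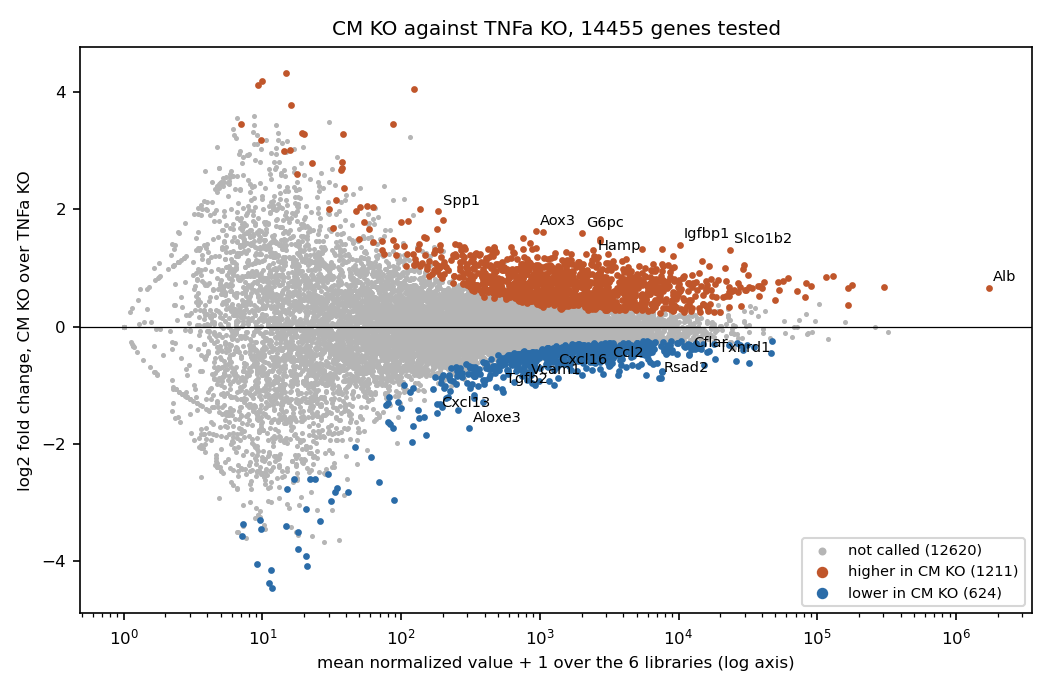
Mean normalized value + 1 over the 6 libraries (log axis) against the log2 fold change of CM KO over TNFa KO, 1 point per tested gene. Orange points (1211) were called higher and blue points (624) lower in CM KO; hepatocyte genes such as Alb, G6pc, Igfbp1 and Slco1b2 lie above 0, and Ccl2, Cxcl16, Vcam1, Rsad2 and Cflar below it.

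Genes that define hepatocytes rose as a group. All 41 members of the list of hepatocyte identity and plasma protein genes were called higher in CM KO and 0 lower, with a median log2 difference of 0.74 against -0.02 over all genes tested. With equal totals 40 of the 41 were called higher (median 0.59). Their summed value was 3882786, 3929704 and 3831856 in the CM KO libraries and 2462928, 2374511 and 2487739 in the TNFa KO libraries, and the groups did not overlap. TGFb KO hepatocytes had a mean above both for 39 of the 41 genes, against 35.0% of all genes tested, and for those 39 the TNFa KO mean was the lowest of the 3 treatments. In bulk RNA, fewer hepatocytes and less of these RNAs per hepatocyte cannot be told apart.

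Alb, which encodes serum albumin and marks the cell type, was at 2110000, 2150000 and 2080000 in CM KO and 1360000, 1290000 and 1360000 in TNFa KO (log2 fold change 0.66 ± 0.19, adjusted p = 0.0198). The 3 CM KO libraries lay above all TNFa KO libraries, but with any 1 of the 6 libraries left out the adjusted p of Alb was between 0.051 and 0.086. Without the filter on low values it was 0.16. Ttr, the transthyretin that carries thyroid hormone in plasma, was at 35596, 37043 and 36195 in CM KO and 24527, 19294 and 27556 in TNFa KO (0.62 ± 0.13, adjusted p = 0.00122).

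Transcription factors that maintain the hepatocyte state rose in part. Of 32 tested lineage factors 7 were called higher and 0 lower (median 0.30), and 5 with equal totals. Hnf4a, the nuclear receptor at the centre of the hepatocyte program (chromosome 2, 163348728 to 163414830, plus strand), was at 5182, 5007 and 4735 in CM KO and 3246, 2487 and 3366 in TNFa KO (0.73 ± 0.11, adjusted p = 8.18e-06). Every CM KO library lay above every TNFa KO library. Foxa3, a forkhead factor that opens liver chromatin, rose by 0.67 ± 0.14, Prox1, a homeobox factor of hepatocyte and lymphatic development, by 0.73 ± 0.16, and Creb3l3, a membrane-bound factor of fasting metabolism, by 1.0 ± 0.12. Cebpa, which encodes C/EBPalpha, had a log2 difference of 0.50 ± 0.21 that did not pass (adjusted p = 0.123).

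Enzymes of nitrogen and glucose metabolism followed the same direction. In the urea cycle and amino acid list 46 of 56 tested genes were called higher and 0 lower (median 0.77; 41 with equal totals). Cps1, the first and rate-limiting enzyme of the urea cycle, was at 79200, 81625 and 75519 in CM KO and 45247, 43565 and 44015 in TNFa KO (0.83 ± 0.09, adjusted p = 4.52e-08). Arg1, which releases urea, was at 5736, 5739 and 5875 in CM KO and 2663, 2391 and 2796 in TNFa KO, and Ass1 and Otc of the same cycle rose by 0.75 ± 0.10 and 0.70 ± 0.09. None of these 4 genes had overlapping groups. Among 36 genes of glucose production and hepatic glycolysis 23 were called higher and 0 lower (median 0.67; 19 higher and 1 lower with equal totals).

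Pck1, the cytosolic enzyme that commits carbon to glucose production (chromosome 2, 172994841 to 173001066, plus strand), was at 11321, 11467 and 10056 in CM KO and 4675, 3856 and 4553 in TNFa KO (1.33 ± 0.11, adjusted p = 4.49e-10). G6pc, which frees glucose for export, was at 3157, 3252 and 2621 in CM KO and 1266, 852 and 896 in TNFa KO (1.60 ± 0.17, adjusted p = 5.51e-08). Gcgr, the glucagon receptor, rose by 1.15 ± 0.17. Both periportal genes, to which Pck1, Arg1 and Cps1 belong, and pericentral genes took part, with 19 of 27 higher and 1 lower in the first list and 16 of 28 higher and 0 lower in the second (medians 0.69 and 0.59). With equal totals the periportal counts were 15 and 1 and the pericentral counts 15 and 1 (medians 0.53 and 0.43).

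Drug metabolism and bile acid genes were mostly higher. Of 60 tested genes of drug and xenobiotic metabolism 48 were called higher and 1 lower (median 0.74; 40 and 1 with equal totals). Aox3, a molybdenum-dependent aldehyde oxidase (chromosome 1, 58152289 to 58239857), was at 1456, 1393 and 1396 in CM KO and 493, 371 and 521 in TNFa KO (1.63 ± 0.14, adjusted p = 2.47e-09). Cyp2e1 and Cyp3a11, abundant cytochromes P450, rose by 0.70 ± 0.09 and 0.84 ± 0.10. The 1 exception was Cyp2b10, a P450 induced through the receptor CAR, at 4717, 4640 and 4617 in CM KO and 5397, 6116 and 5753 in TNFa KO (-0.30 ± 0.09, adjusted p = 0.0185). Its adjusted p was between 0.051 and 0.096 without TNFa KO 2, TNFa KO 3, CM KO 2 or CM KO 3.

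In the bile acid list 22 of 36 tested genes were called higher and 1 lower (median 0.69; 20 and 1 with equal totals). Slco1b2, the organic anion transporter of the sinusoidal membrane, was at 33605, 32681 and 34339 in CM KO and 13235, 13864 and 13466 in TNFa KO (1.31 ± 0.08, adjusted p = 4.87e-12). Slc10a1, which encodes the bile salt importer NTCP, was at 2692, 2602 and 2419 in CM KO and 1450, 1136 and 1066 in TNFa KO (1.09 ± 0.14, adjusted p = 6.57e-07). Cyp7a1, the rate-limiting enzyme of bile acid synthesis from cholesterol, was at 612, 514 and 916 in CM KO and 281, 298 and 247 in TNFa KO (1.26 ± 0.21, adjusted p = 4.34e-05). All 3 genes separated the groups, and Cyp7a1 varied most within CM KO. The lower member was Abcc4, a basolateral exporter (-0.54, adjusted p between 0.054 and 0.079 in each fit without 1 of the 6 libraries).

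**Figure D2:**
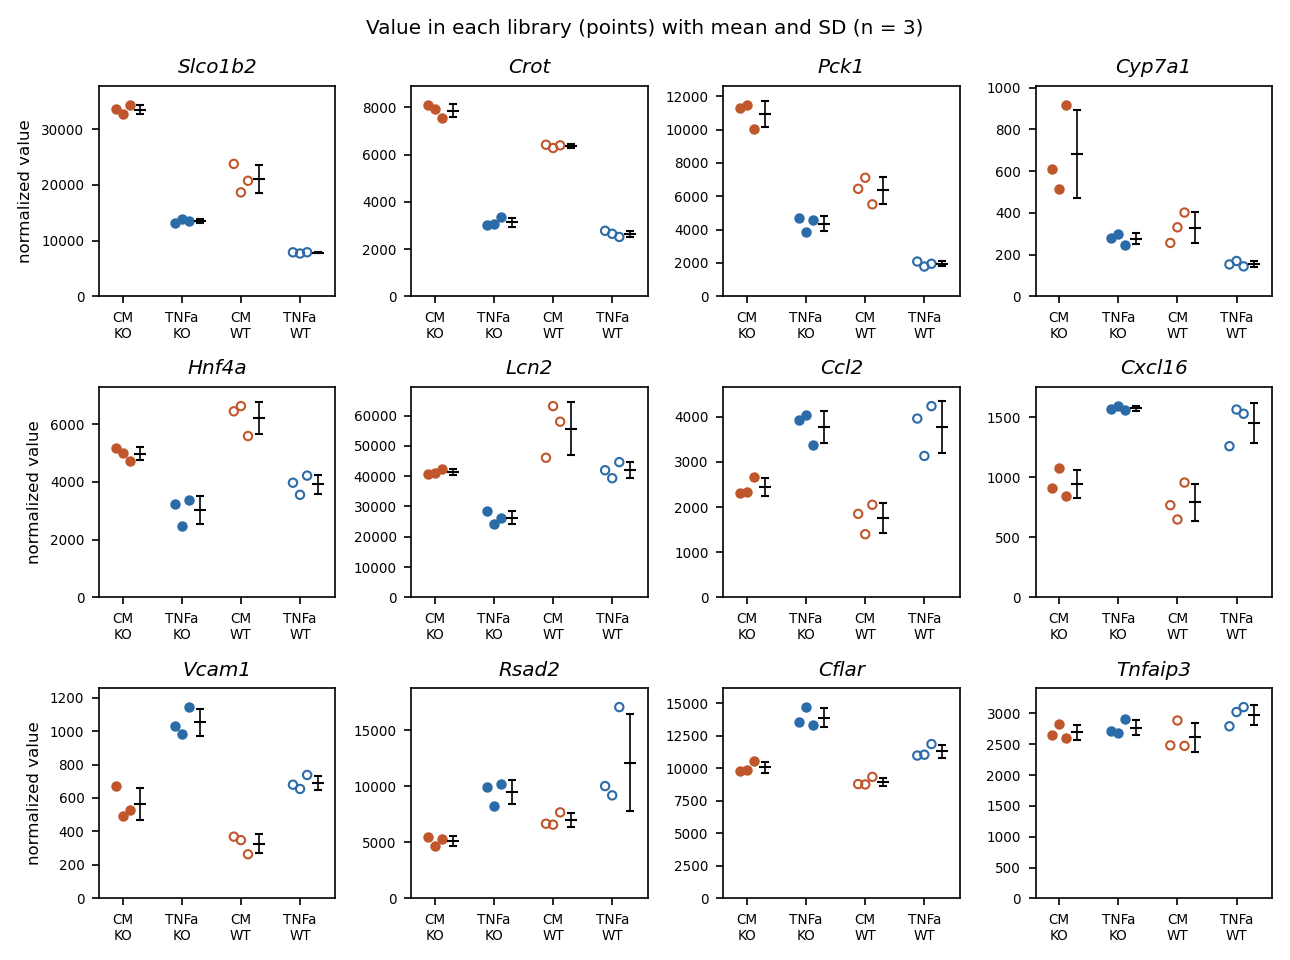
Normalized value in each library for 12 genes, 1 panel per gene with its own linear axis from 0; filled points are KO and open points WT libraries, orange for CM and blue for TNFa, and the bar gives the mean and SD of 3 libraries. Slco1b2, Crot, Pck1, Cyp7a1, Hnf4a and Lcn2 were higher and Ccl2, Cxcl16, Vcam1, Rsad2 and Cflar lower in CM KO than in TNFa KO, and Tnfaip3 overlapped.

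Most genes of fatty acid oxidation and of lipid synthesis were called higher in CM KO. Fatty acid oxidation had 33 of 42 tested genes called higher and 0 lower (median 0.70), de novo fatty acid synthesis 22 of 28 and 0 (0.75), and cholesterol synthesis and uptake 26 of 31 and 0 (0.65). With equal totals the counts were 31, 19 and 22 higher and 0 lower in each. Crot, which moves shortened acyl chains out of peroxisomes (carnitine octanoyltransferase), had the smallest p-value of the oxidation list, at 8096, 7913 and 7549 in CM KO and 3004, 3052 and 3348 in TNFa KO (1.33 ± 0.08, adjusted p = 2.44e-12).

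Cpt1a, the gate of mitochondrial fatty acid entry, was at 1610, 1338 and 1344 in CM KO and 919, 563 and 671 in TNFa KO (1.02 ± 0.15, adjusted p = 7.57e-06). It is a target of the nuclear receptor PPARalpha, whose own gene Ppara overlapped between groups at 790, 900 and 720 in CM KO and 674, 780 and 721 in TNFa KO (0.14 ± 0.15, adjusted p = 0.639; -0.01 with equal totals). The PPARalpha and ketogenesis list had 15 of 31 higher and 2 lower (median 0.78; 15 and 2 with equal totals, median 0.62). One of the lower genes was Angptl4, a secreted inhibitor of lipoprotein lipase, at 765, 963 and 867 in CM KO and 1344, 1354 and 1429 in TNFa KO (-0.67 ± 0.15, adjusted p = 0.00197).

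On the synthetic side, Acss2, which makes acetyl-CoA from acetate, was at 4181, 3976 and 3749 in CM KO and 1742, 1294 and 1243 in TNFa KO (1.49 ± 0.11, adjusted p = 1.37e-10). Scd1, the desaturase that makes oleate, was at 168103, 167122 and 167422 in CM KO and 92410, 97392 and 85868 in TNFa KO (0.87 ± 0.10, adjusted p = 3.7e-07). Srebf1, the gene of the lipogenic factor SREBP-1, rose by 0.80 ± 0.10, and Fasn, the fatty acid synthase, by 0.47 ± 0.10. The factor and its targets were higher together, with no overlap between the groups for any of the 4 genes.

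Cholesterol genes rose from the first committed steps to sterol transport. Hmgcs1, which makes HMG-CoA, was at 29128, 30164 and 26545 in CM KO and 18419, 17621 and 17798 in TNFa KO (0.67 ± 0.09, adjusted p = 1.11e-06). Stard4, a cytosolic sterol carrier, was at 4074, 4378 and 4103 in CM KO and 2042, 1912 and 1988 in TNFa KO (1.08 ± 0.09, adjusted p = 7.86e-10). Unlike for the hepatocyte identity genes, the TGFb KO mean was the highest of the 3 treatments for 3 of the 31 cholesterol genes. Over all genes tested that share was 35.0%. The TGFb KO mean was the lowest for 12 of the 31, near the share over all genes (37.5%).

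Sterol genes are the textbook targets of SREBP-2, which binds sterol regulatory elements. The promoter of Hmgcs1 is shown because it holds a match to such an element. The window is the 250 bases before the RefSeq start on GRCm38.p6, an older build than the mm39 of the expression table, chr13:119690101-119690350, plus strand, with the motif (TCAC, any base, CCAC) in capitals.
Hmgcs1: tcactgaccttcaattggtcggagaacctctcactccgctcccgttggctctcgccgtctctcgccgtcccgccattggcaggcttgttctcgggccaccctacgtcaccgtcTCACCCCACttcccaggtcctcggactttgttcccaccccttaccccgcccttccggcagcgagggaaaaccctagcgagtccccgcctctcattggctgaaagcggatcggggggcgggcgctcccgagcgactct
That motif, searched on both strands of such windows, was in 1 of 30 windows of the cholesterol list (3.33%). It was in 1.06% of 14192 windows of the genes tested. The motif was thus uncommon in both in this spelling, and Hmgcs1 does not stand for the list. A match here is a run of letters and not a measured binding site.

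Plasma proteins made for defence rose with the other hepatocyte products. Of 48 tested complement and coagulation genes 42 were called higher and 0 lower (median 0.64; 35 with equal totals). C3, the central complement protein, was at 71509, 76161 and 67242 in CM KO and 45825, 36186 and 43976 in TNFa KO (0.78 ± 0.12, adjusted p = 1.25e-05). F9, coagulation factor IX, was at 3397, 3815 and 3343 in CM KO and 2044, 2079 and 2270 in TNFa KO (0.72 ± 0.10, adjusted p = 4.12e-06). Plg, the precursor of the clot-dissolving enzyme plasmin, rose by 0.72 ± 0.09. All 3 separated the groups.

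Acute-phase genes, whose transcription in liver is known to answer IL-6, IL-1 and TNFa, had 23 of 33 called higher and 1 lower (median 0.62; 22 and 2 with equal totals). Hamp, the iron hormone hepcidin, was at 3277, 3215 and 3704 in CM KO and 1317, 1437 and 1686 in TNFa KO (1.20 ± 0.10, adjusted p = 1.19e-09). Hp, the haemoglobin-binding haptoglobin, was at 8081, 8301 and 8834 in CM KO and 4279, 3718 and 4956 in TNFa KO (0.97 ± 0.11, adjusted p = 1.36e-07). Fgb, a fibrinogen chain, and Orm1, an orosomucoid, rose by 0.62 ± 0.08 and 0.79 ± 0.11. The serum amyloid genes, the classical major acute-phase reactants of mice, did not pass. Saa1 was at 1008, 798 and 999 in CM KO and 702, 833 and 728 in TNFa KO, and the groups overlapped (0.30 ± 0.17, adjusted p = 0.285). Saa2 had a difference of 0.60 ± 0.26 (adjusted p = 0.138). The 1 lower gene was Il1rn, the antagonist of the IL-1 receptor, described with the TNFa targets.

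In the growth hormone and IGF list 9 of 24 were called higher and 0 lower (median 0.20). With equal totals the counts were 9 and 0, with a median of 0.05. Igfbp1, a binding protein of insulin-like growth factors that insulin represses, was at 15257, 15388 and 13697 in CM KO and 5023, 6339 and 5555 in TNFa KO (1.39 ± 0.11, adjusted p = 2.1e-10). Igf1 rose by 0.60 ± 0.09 and Ghr, the growth hormone receptor, by 0.89 ± 0.11. The groups did not overlap for these 3.

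**Figure D3:**
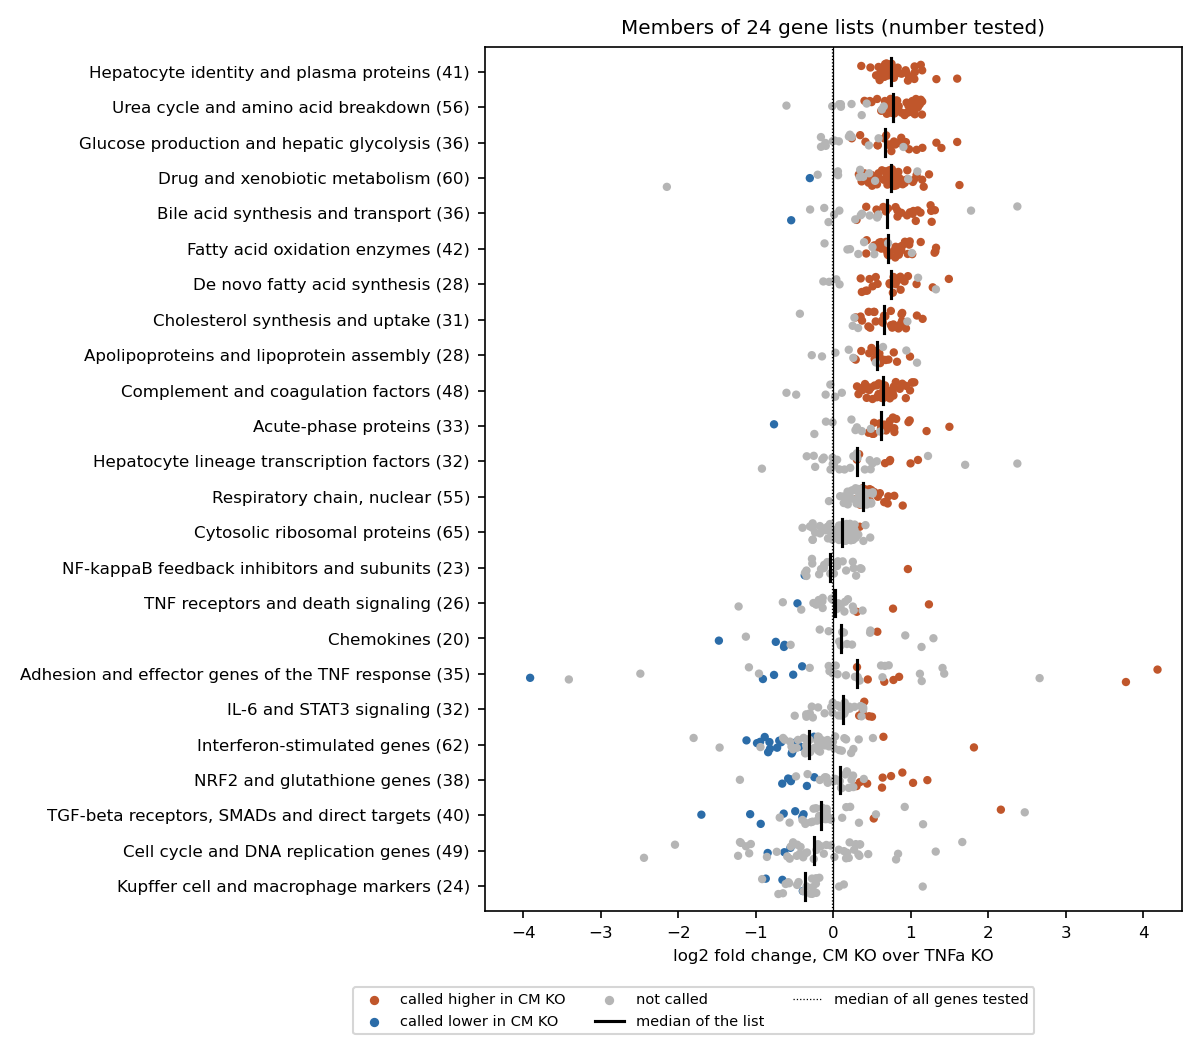
Log2 fold change of CM KO over TNFa KO (x axis) for each tested member of 24 gene lists (rows, number tested in brackets); orange members were called higher, blue lower and grey not called, the bar is the median of the list and the dotted line the median of all genes (-0.02). Hepatocyte and lipid lists such as hepatocyte identity (0.74), urea cycle (0.77) and de novo fatty acid synthesis (0.75) lie right of 0, while the interferon-stimulated genes (-0.31) and the macrophage markers (-0.37) lie to the left.

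The TNFa pathway itself was compared in order from ligand to target. Tnf, the gene of the ligand, was at 90.1, 81.5 and 84.4 in CM KO and 134, 29.4 and 70.5 in TNFa KO, so the groups overlapped and the TNFa KO libraries spread widely (0.38 ± 0.70, adjusted p = 0.811; -0.19 without TNFa KO 2). The receptor genes Tnfrsf1a (TNFR1) and Tnfrsf1b (TNFR2) did not pass, with log2 differences of 0.26 ± 0.15 (adjusted p = 0.305) and 0.06 ± 0.09 (adjusted p = 0.76). With equal totals that of Tnfrsf1b was -0.09, and without CM KO 3 it was 0.00. Among 26 receptor and death-signaling genes 3 were called higher and 1 lower (15.4%, near the 12.7% of all genes tested). The median was 0.02, and with equal totals the counts were 1 and 7.

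The lower gene was Cflar, which encodes cFLIP, the protein that keeps caspase-8 from being activated under death receptors (chromosome 1, 58750667 to 58798043). It was at 9775, 9879 and 10517 in CM KO and 13578, 14692 and 13328 in TNFa KO, and the groups did not overlap (-0.46 ± 0.08, adjusted p = 5.86e-05). Map3k5, the stress kinase ASK1, was at 475, 570 and 507 in CM KO and 313, 267 and 330 in TNFa KO (0.77 ± 0.16, adjusted p = 0.000854). Fas, a death receptor, was at 160, 178 and 123 in CM KO and 44.3, 71.8 and 81.8 in TNFa KO (1.23 ± 0.41, adjusted p = 0.0416). The call of Fas was lost in 5 of the 6 fits without 1 library, where its adjusted p reached 0.19, and was kept without TNFa KO 3. It was also lost with equal totals (adjusted p = 0.063) and without the filter on low values (0.067).

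Calls among feedback inhibitors and subunits of NF-kappaB were near the share over all genes. Of 23 genes 1 was called higher and 1 lower (8.7%, against 12.7% of all genes tested). The median was -0.04, and with equal totals the counts were 1 and 3. Tnfaip3, the ubiquitin-editing enzyme A20, was at 2655, 2830 and 2595 in CM KO and 2716, 2685 and 2903 in TNFa KO (-0.04 ± 0.10, adjusted p = 0.863). Nfkbia, which encodes IkappaBalpha, was at 1735, 1790 and 1548 in CM KO and 1498, 1576 and 1844 in TNFa KO (0.05 ± 0.13, adjusted p = 0.878; -0.11 with equal totals and -0.01 without TNFa KO 1). Both genes overlapped between groups, which does not show that they are equal. Nfkbiz, an atypical member that is a co-activator in the nucleus, was at 1015, 1070 and 1156 in CM KO and 681, 498 and 498 in TNFa KO (0.96 ± 0.14, adjusted p = 8.17e-06). Nfkb1, the p105 and p50 subunit, fell by 0.37 (adjusted p = 0.0265), a call lost without TNFa KO 1, TNFa KO 2, CM KO 2 or CM KO 3 (adjusted p up to 0.12).

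The chemokines that passed were mostly lower in CM KO. Of 20 tested 1 was called higher and 4 lower, although the median of the list was 0.11 (1 and 4 with equal totals, median -0.05). Cxcl16, a membrane-anchored chemokine that draws CXCR6-bearing lymphocytes (chromosome 11, 70344809 to 70350810), was at 909, 1078 and 846 in CM KO and 1566, 1592 and 1559 in TNFa KO (-0.74 ± 0.15, adjusted p = 0.000449). Ccl2, the main monocyte attractant, was at 2313, 2342 and 2671 in CM KO and 3933, 4036 and 3378 in TNFa KO (-0.63 ± 0.17, adjusted p = 0.013). Cxcl10, which attracts CXCR3-bearing T cells, was at 374, 524 and 563 in CM KO and 846, 690 and 710 in TNFa KO (-0.64 ± 0.20, adjusted p = 0.0326). The groups separated for all 3. Ccl2 was at an adjusted p of 0.052 to 0.058 without TNFa KO 1, TNFa KO 2, CM KO 1 or CM KO 2, and Cxcl10 reached 0.22 without CM KO 1, 0.14 without TNFa KO 1, 0.058 without TNFa KO 3 and 0.053 without the filter on low values.

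The fourth was Cxcl13, which guides B cells, at 105, 96.5 and 78.6 in CM KO and 246, 207 and 346 in TNFa KO (-1.48 ± 0.48, adjusted p = 0.037), whose call was lost in all 6 fits without 1 library (adjusted p up to 0.16) and without the filter on low values (0.06). The higher one was Ccl9, a CCR1 ligand, at 2578, 2913 and 2894 in CM KO and 1843, 1979 and 1827 in TNFa KO (0.57 ± 0.12, adjusted p = 0.00119). The neutrophil attractant Cxcl1 overlapped between groups, at 896, 859 and 933 in CM KO and 887, 836 and 792 in TNFa KO (0.10 ± 0.17, adjusted p = 0.797; -0.06 with equal totals). TGFb KO had a lower mean than both groups for 13 of the 20 chemokines, against 37.5% of all genes tested. Among the 13 were Ccl2 (550) and Cxcl1 (324), so CM KO lay above TGFb KO for these 2.

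Promoters with a match to the NF-kappaB motif (GGGA, any 2 bases, TTCC) are shown for a chemokine that fell and for a feedback gene that did not pass. They are the 250 bases before the RefSeq start on GRCm38.p6, Cxcl10 at chr5:92348890-92349139 and Nfkbia at chr12:55492648-55492897, both on the minus strand, with the match in capitals.
Cxcl10: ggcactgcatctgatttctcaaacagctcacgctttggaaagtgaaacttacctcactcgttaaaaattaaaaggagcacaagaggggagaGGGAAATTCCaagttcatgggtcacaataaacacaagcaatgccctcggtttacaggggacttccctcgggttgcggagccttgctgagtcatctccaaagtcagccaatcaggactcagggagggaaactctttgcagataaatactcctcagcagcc
Nfkbia: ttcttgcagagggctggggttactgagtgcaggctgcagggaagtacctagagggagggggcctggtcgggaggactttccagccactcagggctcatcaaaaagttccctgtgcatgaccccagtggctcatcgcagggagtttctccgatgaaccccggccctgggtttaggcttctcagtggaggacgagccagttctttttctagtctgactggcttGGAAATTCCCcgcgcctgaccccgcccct
The match begins 159 bases before the start in Cxcl10 and 29 bases before it in Nfkbia. On both strands the motif was in 25% of 16 chemokine windows, in 17.4% of 23 windows of feedback genes and in 1.21% of the windows of all genes tested, so the same letters stand before genes that fell and before genes that overlapped.

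Effectors of the TNFa response split. Of 35 tested 7 were called higher and 5 lower (median 0.31; 6 and 6 with equal totals). The higher ones include Lcn2 and Steap4. Lcn2, a siderophore-binding protein (lipocalin-2), was at 40825, 40868 and 42459 in CM KO and 28468, 24134 and 26250 in TNFa KO (0.66 ± 0.10, adjusted p = 1.24e-05), and Steap4, a metalloreductase, at 2053, 1897 and 2067 in CM KO and 983, 1060 and 1320 in TNFa KO (0.85 ± 0.12, adjusted p = 6.46e-06). The lower ones include surface and anti-inflammatory proteins. Vcam1, an adhesion receptor for leukocytes (chromosome 3, 115903598 to 115923337), was at 671, 491 and 528 in CM KO and 1028, 983 and 1143 in TNFa KO (-0.91 ± 0.17, adjusted p = 0.000292). Il1rn was at 2587, 2662 and 3003 in CM KO and 4364, 5062 and 4598 in TNFa KO (-0.77 ± 0.12, adjusted p = 1.67e-05). Icam1, the other common adhesion receptor, overlapped (0.28 ± 0.15, adjusted p = 0.256).

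Il6, the cytokine that drives acute-phase genes through STAT3, was close to the limit of detection. It was at 24.8, 12.2 and 16.7 in CM KO and was listed at 0 in all 3 TNFa KO libraries, with an adjusted p of 0.0491 and of 0.096 to 0.16 in the 6 fits without 1 library. Its call was also lost with the replicate number as a block (adjusted p = 0.067) and with a pseudocount of 0.5 (0.068). In the IL-6 and STAT3 list 5 of 32 genes were called higher and 0 lower (15.6%, against 12.7% of all genes tested). The median was 0.12, and with equal totals the counts were 1 and 2. Stat3 was at 2626, 3005 and 2377 in CM KO and 2096, 2035 and 1999 in TNFa KO (0.38 ± 0.09, adjusted p = 0.00374; 0.056 without CM KO 2 and 0.072 with equal totals). Socs3, the feedback inhibitor that STAT3 induces, overlapped between groups at 126, 73.1 and 84.4 in CM KO and 89.4, 106 and 155 in TNFa KO (-0.30 ± 0.38, adjusted p = 0.702).

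Interferon-stimulated genes (ISGs), the antiviral program that interferons switch on, were lower in part. Of 62 tested ISGs 15 were called lower and 2 higher, with a median of -0.31 against -0.02 over all genes; with equal totals the counts were 25 and 2, and 11 to 16 were lower in the 6 fits without 1 library. Their summed value was 56008, 53099 and 55667 in CM KO and 74420, 66657 and 76446 in TNFa KO, without overlap. TGFb KO had the lowest mean of the 3 treatments for 50 of the 62 genes, against 37.5% of all genes tested.

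Rsad2, which encodes the antiviral enzyme viperin, was at 5443, 4621 and 5248 in CM KO and 9909, 8226 and 10209 in TNFa KO (-0.89 ± 0.20, adjusted p = 0.00173). Ifit1, a sensor of foreign RNA caps, was at 2147, 1929 and 2050 in CM KO and 3274, 3112 and 3771 in TNFa KO (-0.73 ± 0.17, adjusted p = 0.00363). Parp14, an ADP-ribosyltransferase, was at 2121, 2052 and 2012 in CM KO and 3919, 3302 and 3704 in TNFa KO (-0.82 ± 0.11, adjusted p = 2.71e-06). In each the highest CM KO library lay below the lowest TNFa KO library. Irgm1, a GTPase of autophagy and cell defence, was at 1495, 1809 and 1484 in CM KO and 2349, 1945 and 2689 in TNFa KO (-0.54 ± 0.13, adjusted p = 0.00303). Xaf1, Oasl1 and Adar fell by 0.82, 0.67 and 0.70.

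Not every ISG was lower. Iigp1, a GTPase induced by interferon gamma, was at 3210, 3200 and 2747 in CM KO and 1869, 1953 and 2014 in TNFa KO (0.65 ± 0.12, adjusted p = 0.000324). Gbp10, a guanylate-binding protein, was at 328, 245 and 285 in CM KO and 22.2, 212 and 106 in TNFa KO (1.81 ± 0.45, adjusted p = 0.00547), and without TNFa KO 1 the difference was 0.91 (adjusted p = 0.083). In a fit of only the CM KO and TNFa KO libraries the adjusted p of Gbp10 was 0.099. The Gbp genes are near-identical copies, so their reads can be split between them. Isg15, a ubiquitin-like modifier, overlapped (-0.08 ± 0.30, adjusted p = 0.924; 0.04 without CM KO 2).

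**Figure D4:**
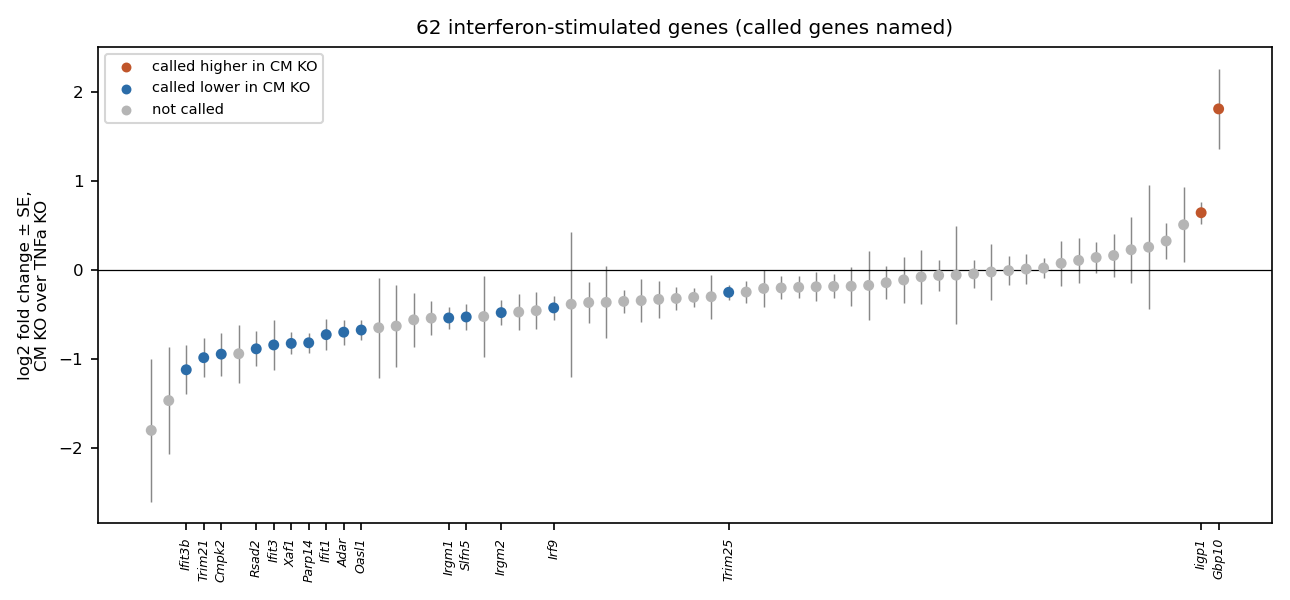
Log2 fold change of CM KO over TNFa KO with its standard error for each of the 62 tested interferon-stimulated genes, ordered by value, with called genes named; blue points (15) were called lower, orange points (2) higher and grey points not. Most points lie below 0, and Gbp10 and Iigp1 are the 2 called above it.

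Promoters of 3 ISGs that fell are shown, since transcription factors activated by interferons bind the interferon-stimulated response element (ISRE), searched here as GAAA, any 2 bases, GAAA on both strands, where overlapping matches are counted together. They are the 250 bases before the RefSeq start on GRCm38.p6, Ifit1 at chr19:34640639-34640888 on the plus strand, Rsad2 at chr12:26456453-26456702 and Irgm1 at chr11:48871421-48871670 on the minus strand, with the matches in capitals.
Ifit1: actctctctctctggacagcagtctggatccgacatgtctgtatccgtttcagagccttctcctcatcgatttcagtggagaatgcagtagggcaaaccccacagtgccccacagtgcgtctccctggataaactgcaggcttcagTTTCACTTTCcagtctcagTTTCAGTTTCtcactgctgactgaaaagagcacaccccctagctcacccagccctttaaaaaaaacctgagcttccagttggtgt
Rsad2: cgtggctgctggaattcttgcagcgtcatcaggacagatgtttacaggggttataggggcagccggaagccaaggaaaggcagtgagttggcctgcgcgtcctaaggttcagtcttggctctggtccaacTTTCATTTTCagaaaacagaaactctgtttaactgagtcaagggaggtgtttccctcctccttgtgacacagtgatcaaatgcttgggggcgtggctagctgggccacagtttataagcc
Irgm1: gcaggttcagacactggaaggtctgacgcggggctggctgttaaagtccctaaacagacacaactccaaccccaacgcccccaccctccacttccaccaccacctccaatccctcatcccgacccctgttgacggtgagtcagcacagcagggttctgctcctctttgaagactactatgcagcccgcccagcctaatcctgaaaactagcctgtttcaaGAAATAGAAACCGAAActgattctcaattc
Ifit1 and Irgm1 have 2 matches each and Rsad2 has 1, which begins 120 bases before the start. Of the ISG windows 41.2% of 51 hold the motif, against 2.68% of the windows of all genes tested. It did not separate the genes that fell, since 7 of 14 ISGs with a window that were called lower held it and 14 of 29 that were not called held it.

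Genes that present antigen or restrain T cells were called in both directions. Cd274, which encodes PD-L1, the ligand of the T cell checkpoint PD-1, was at 1618, 1382 and 1387 in CM KO and 2492, 2681 and 2557 in TNFa KO, without overlap (-0.82 ± 0.14, adjusted p = 9.68e-05). Its list had 7 of 25 genes higher and 2 lower (36.0%, against 12.7% of all genes tested, median 0.17). With equal totals the counts were 7 and 3 (median 0.02). The higher ones included Arg1 and Tdo2, which are also hepatocyte metabolic enzymes. In the MHC class I list 7 of 25 were called higher and 1 lower (32.0%, median 0.09), and 4 and 4 with equal totals. H2-Q10, a class I gene secreted by mouse liver, was at 17563, 19377 and 17079 in CM KO and 10521, 10977 and 11774 in TNFa KO (0.70 ± 0.09, adjusted p = 1.15e-06). Class I genes are near-identical, and reads may be split between them.

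Oxidative stress genes divided by kind. In the NRF2 and glutathione list 9 of 38 were called higher and 6 lower (median 0.09; 6 and 8 with equal totals). The higher ones included glutathione transferases of the liver, with Gsta3 at 5691, 5586 and 5800 in CM KO and 3141, 3126 and 2945 in TNFa KO (0.89 ± 0.09, adjusted p = 3.67e-08). The lower ones included genes that recycle thiols. Txnrd1, thioredoxin reductase, was at 14808, 14742 and 14943 in CM KO and 21402, 21225 and 22425 in TNFa KO (-0.55 ± 0.08, adjusted p = 3.98e-06). Srxn1, sulfiredoxin, was at 20428, 22116 and 19413 in CM KO and 31195, 30784 and 30706 in TNFa KO (-0.58 ± 0.08, adjusted p = 2.25e-06). Slc7a11, the cystine importer, was at 11765, 11813 and 11533 in CM KO and 17487, 21276 and 16984 in TNFa KO (-0.66 ± 0.11, adjusted p = 4.9e-05). All 4 separated the groups.

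Genes of the TGF-beta family and of the immediate-early response also divided. Tgfb1, the main ligand, overlapped between groups (-0.22 ± 0.40, adjusted p = 0.803). Of 40 TGF-beta genes 2 were called higher and 7 lower (median -0.15; 2 and 12 with equal totals). Tgfb2, a ligand, was at 327, 402 and 301 in CM KO and 695, 714 and 746 in TNFa KO (-1.07 ± 0.14, adjusted p = 2.27e-06), and Thbs1, which releases latent TGF-beta, at 745, 997 and 684 in CM KO and 1512, 1678 and 1407 in TNFa KO (-0.94 ± 0.14, adjusted p = 1.3e-05). Among 39 AP-1 and immediate-early genes 3 were called higher and 4 lower (17.9%, against 12.7% of all genes tested). The median was 0.00, and with equal totals the counts were 3 and 11. Fosb was at 824, 600 and 494 in CM KO and 304, 345 and 320 in TNFa KO (0.95 ± 0.19). Ccn1, a matricellular YAP target, fell by 0.64 (adjusted p = 3.66e-06).

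Markers of duct-like or dedifferentiated hepatocytes were called lower more often than higher. In that list 4 of 21 were called lower and 1 higher (23.8%, against 12.7% of all genes tested). The median was -0.10, and with equal totals the counts were 6 and 1 (median -0.25). Cldn4, a tight junction claudin of ducts, was at 5890, 5829 and 5129 in CM KO and 9569, 8362 and 10799 in TNFa KO (-0.76 ± 0.09, adjusted p = 5.82e-07), with a TGFb KO mean of 35711. Spp1, which encodes osteopontin, was at 238, 265 and 380 in CM KO and 63.1, 102 and 60.3 in TNFa KO (1.97 ± 0.27, adjusted p = 3e-06). Of 49 cell cycle and replication genes 0 were called higher and 3 lower (6.1%). Over all genes tested 4.32% were called lower and 12.7% in either direction. The list median was -0.25, with 10 lower under equal totals and 1 to 5 in the fits without 1 library. Mcm6 was at 1134, 806 and 1382 in CM KO and 1408, 1688 and 1982 in TNFa KO (-0.63 ± 0.15, adjusted p = 0.00385, and 0.072 without CM KO 2).

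Nuclear genes of the respiratory chain were higher in part, and the result depended on the scaling. Of 55 tested 21 were called higher and 0 lower (median 0.38), and 5 with equal totals (median 0.23). Atp5c1, a subunit of ATP synthase, was at 5431, 5265 and 5032 in CM KO and 3648, 3342 and 3011 in TNFa KO (0.66 ± 0.11, adjusted p = 9.72e-05), and Sdha of complex II at 5290, 5774 and 4937 in CM KO and 3850, 3743 and 3952 in TNFa KO (0.47 ± 0.11, adjusted p = 0.00213). The 13 genes encoded in mitochondrial DNA had 0 called in either direction, as deposited (median -0.09) and with equal totals (-0.25), and the share of mitochondrial genes in all values was 3.84 to 6.92% in CM KO and 5.32 to 6.86% in TNFa KO. Of 65 cytosolic ribosomal protein genes 1 was called higher and 0 lower (median 0.11, and -0.05 with equal totals).

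The 12 largest rises among called genes with a mean of at least 50 and groups that did not overlap were Nnt, Rsc1a1, B3galt1, St3gal3, Spp1, Gbp10, Slc30a10, Ncald, Cbr1, Rcan2, Klc4 and Aox3, and the 12 largest falls were Pcdhgc3, Pam16, Naip6, Aloxe3, Fyn, Bmp2, Fbxl12, Zfp937, Bmp10, Nptx1, Cxcl13 and Fzd6. Libraries did not overlap for 29.2% of all genes tested, so that property is common. Nnt, the mitochondrial transhydrogenase, is listed as 2 overlapping gene models that share reads. One model was at 163, 170 and 359 in CM KO and 13.9, 19.7 and 6.32 in TNFa KO (4.05 ± 0.75, adjusted p = 0.000211), and the other, which did not pass (0.01 ± 0.36, adjusted p = 0.993), changed sign with equal totals (-0.15) and without TNFa KO 3 (-0.12), CM KO 1 (-0.17) or CM KO 2 (-0.10). Summed over both models Nnt was at 474, 451 and 523 in CM KO and 274, 290 and 208 in TNFa KO, so the size for the single model is uncertain.

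Several of these genes kept their call without any 1 of the 6 libraries. Aloxe3, a lipoxygenase of skin and adipose lipid signaling, was at 150, 161 and 113 in CM KO and 538, 364 and 519 in TNFa KO (-1.73 ± 0.26, adjusted p = 1.35e-05). Slc30a10, the manganese exporter of liver, was at 186, 186 and 138 in CM KO and 61.6, 78.4 and 22 in TNFa KO (1.80 ± 0.39, adjusted p = 0.00119). Rcan2, an inhibitor of calcineurin, was at 349, 245 and 224 in CM KO and 130, 68.6 and 65.4 in TNFa KO (1.67 ± 0.40, adjusted p = 0.00358). Others rested on single libraries, and the adjusted p follows each fold change here. Without CM KO 3 Pcdhgc3 was at -0.97 (0.43), Fyn at -1.09 (0.26), Zfp937 at -0.92 (0.26), Klc4 at 1.33 (0.17), Bmp10 at -1.50 (0.077) and Fbxl12 at -1.41 (0.051). Without CM KO 2 Pam16 was at -1.65 (0.24), Naip6 at -1.53 (0.19), Bmp2 at -1.17 (0.17), Ncald at 1.55 (0.11), Bmp10 at -1.39 (0.11) and B3galt1 at 1.88 (0.066). Without CM KO 1 Fyn was at -1.60 (0.11), Naip6 at -2.25 (0.06), B3galt1 at 1.93 (0.059) and Cbr1 at 1.54 (0.053). The calls were also lost without TNFa KO 1 for Pcdhgc3, Fyn, Pam16, Ncald, Bmp10 and Klc4 (adjusted p up to 0.29), without TNFa KO 2 for Pcdhgc3, Fyn, Zfp937, Naip6, Bmp2, Ncald, Bmp10 and B3galt1 (up to 0.14), and without TNFa KO 3 for Pcdhgc3, Fyn, Zfp937, Pam16 and Naip6 (up to 0.13). Other settings ended some of the same calls. Without the filter on low values the adjusted p was 0.067 for Fyn and for Pam16, 0.057 for Klc4, 0.08 for Pcdhgc3 and 0.054 for Zfp937. In a fit of only the CM KO and TNFa KO libraries it was 0.11 for Fyn and for Zfp937, 0.17 for Klc4, 0.2 for Pcdhgc3, 0.069 for B3galt1, 0.063 for Pam16 and 0.059 for Naip6. With library weights it was 0.096 for Pcdhgc3 and 0.057 for Zfp937.

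Markers of several cell types other than hepatocytes were detected, and some were called. Of 24 tested Kupffer cell and macrophage markers 0 were called higher and 3 lower (12.5%, median -0.37), and 7 lower with equal totals. Over all genes tested 12.7% were called in either direction and 4.32% lower. The summed value of these markers was 11105 to 11308 in CM KO and 14561 to 15395 in TNFa KO. Lyz2, lysozyme of myeloid cells, was at 972, 878 and 1041 in CM KO and 1869, 1654 and 1761 in TNFa KO (-0.87 ± 0.13, adjusted p = 8.85e-06), while Clec4f, which marks resident Kupffer cells, overlapped at 162, 225 and 135 in CM KO and 244, 184 and 93.0 in TNFa KO (0.07 ± 0.46, adjusted p = 0.953). Adgre1 and Cd5l of the same list were lower without overlap but did not pass (-0.62 and -0.58, limma adjusted p = 0.0709 and 0.0714). Over the 24 markers the groups did not overlap for 9 that were lower and 1 that was higher. Over all genes tested these shares were 14.2% and 15%. Sinusoidal endothelial markers had 3 of 22 lower (summed 5584 to 5788 in CM KO and 7072 to 7432 in TNFa KO) and stellate cell markers 1 of 12 lower, and 6 and 1 with equal totals, with Col1a1 at 0 in all 6 libraries. Lymphocyte and neutrophil markers had 0 of 5 called each, and Ly6g was at 0. The part of these cells in the lower chemokine, Vcam1, Il1rn and ISG values was not tested. Of 8 mammary epithelial markers 2 were called higher, Prlr and Esr1, which mouse hepatocytes also express.

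WT hepatocytes gave the same contrast from libraries that are not shared with the KO contrast. CM WT and TNFa WT differed in 1774 of 14455 genes (12.3%), 985 higher (6.81%) and 789 lower (5.46%; 453 without TNFa WT 3). Called in both genotypes were 872 genes, which are 47.5% of those called in KO and 49.2% of those called in WT, and 864 of them had the same direction. Slco1b2, Crot and Pck1 had WT log2 differences of 1.42, 1.27 and 1.71 beside 1.31, 1.33 and 1.33 in KO, and Ccl2, Vcam1 and Cd274 of -1.10, -1.09 and -0.71 beside -0.63, -0.91 and -0.82. Of the 41 hepatocyte identity genes 28 were called higher and 0 lower in WT (median 0.51). Of the 62 ISGs 8 were called lower and 1 higher in WT (median -0.23), and 3 to 9 were lower without 1 WT library, with 3 without TNFa WT 3 and 5 without CM WT 2. Other lists had different counts in the genotypes. The 55 respiratory chain genes had 21 higher and 0 lower in KO and 2 and 4 in WT, and the 32 hypoxia and glycolysis genes 8 and 0 in KO (3 and 1 with equal totals) and 2 and 4 in WT. The 39 stress genes that answer unfolded proteins or amino acid shortage had 6 higher and 2 lower in KO (5 and 7 with equal totals) and 11 and 10 in WT. The difference between genotypes was tested per gene and not over lists. Summed Kupffer cell and macrophage markers were 5769 to 6457 in CM WT and 6934 to 7993 in TNFa WT. In CM KO and TNFa KO they were higher, at 11105 to 11308 and 14561 to 15395. The part of such cells in the genotype differences was not tested.

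Whether the contrast itself differed between genotypes was tested as the difference of the log2 changes, KO minus WT. It was called for 91 genes (0.63%), 83 with a positive (0.574%) and 8 with a negative difference (0.0553%). With equal totals the split was 26 and 16. In 66 of them CM was higher than TNFa in KO and lower in WT. The count depended on single libraries. It was 32 without TNFa KO 1 and 348 without CM WT 3, lay between 33 and 44 without TNFa KO 2, TNFa WT 1, TNFa WT 3, CM KO 1, CM KO 2, CM KO 3, CM WT 1 or CM WT 2, and was within 1.5 times the full count without TNFa KO 3 (103) or TNFa WT 2 (91).

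Ribosomal and mitochondrial genes were among them. Rpl36a, a ribosomal protein of the large subunit, was at 3379, 4222 and 4068 in CM KO and 3475, 3226 and 3334 in TNFa KO, with WT means of 2081 for CM and 4220 for TNFa (difference 1.25, adjusted p = 0.00164). Over the list, 0 of 65 ribosomal protein genes were called lower in KO and 14 in WT, and 4 had a called genotype difference. The WT count depended on single libraries, at 5 without CM WT 2, 8 without CM WT 1, 9 without TNFa WT 3 and 25 without CM WT 3. The summed value of the list was 132136, 101441 and 135033 in CM WT and 122910, 141706 and 126423 in TNFa WT, so the WT groups overlapped, with CM WT 2 the lowest and TNFa WT 2 the highest library. Acaa2 and Echs1, enzymes of mitochondrial beta-oxidation, were at 0.68 and 0.53 in KO and -0.23 and -0.23 in WT (differences 0.90 and 0.76, adjusted p = 0.00164 and 0.00445). Of the 55 respiratory chain genes 2 were called higher and 4 lower in WT (median -0.04), and 4 had a called difference. Without CM WT 3 the lower ones numbered 11 in WT, and without any 1 of the other 5 WT libraries 1 to 3.

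Other genes with small p-values for the genotype difference had unrelated roles. Ep400, a subunit of a chromatin remodelling complex, was at 4264, 4394 and 3903 in CM KO and 7757, 7009 and 7435 in TNFa KO (-0.82 ± 0.09), with WT means of 5611 for CM and 5491 for TNFa (difference -0.85, adjusted p = 0.00164). Slc25a1, the mitochondrial citrate exporter that feeds fatty acid synthesis, was at 5713, 5332 and 5562 in CM KO and 3425, 3100 and 3506 in TNFa KO (0.73 ± 0.08) and at 0.08 in WT (difference 0.65, adjusted p = 0.00445). Cd81, a tetraspanin, and Fabp5, a fatty acid carrier, had differences of 0.74 and 0.84, and Ankrd23 of 1.33 (adjusted p = 0.00445 each). In KO alone Fabp5 rose by 0.30 (adjusted p = 0.0451), a call lost in all 6 fits without 1 library (up to 0.17) and with equal totals (0.14, adjusted p = 0.34). The call of Fabp5 was also lost with quantile normalization (adjusted p = 0.21) and without the filter on low values (0.071).

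**Figure D5:**
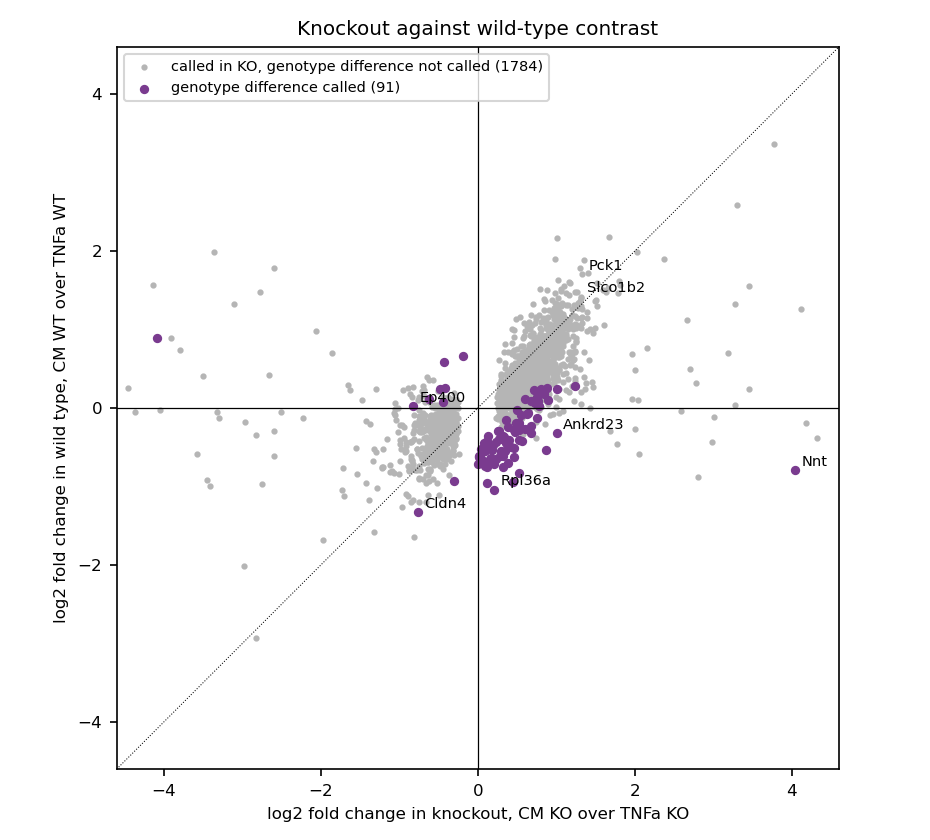
Log2 fold change of CM over TNFa in KO (x axis) and in WT (y axis) for genes called in KO (grey) and for the 91 genes with a called genotype difference (purple); the dotted line marks equal changes. Most grey points lie in the quadrants where both genotypes share a direction, and most purple points lie to the right of 0 and below it.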

How the data were processed

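RNA-seq of 18 libraries, 6 groups of 3, was compared at the level of genes. The deposited values are normalized signal per gene, which the authors made with DESeq2 per the file name, and not raw counts. Per the submitters' processing notes STAR 2.7.8a, Partek, DESeq2 and the build mm39 were used, with no order or settings given. RNA was depleted of ribosomal RNA per the labels' protocols. Between 59.0 and 75.7% of the values in a library came within 0.05 of a whole multiple of 1 read, too few to recover reads, so no count test was run and the depths given are estimates.

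The 14455 of 16873 genes that reached 10 in 3 or more libraries were fitted as log2(value + 1) with limma 3.58.1 (limma-trend, R 4.3.3) over the 6 group means, with 12 residual and 17 prior degrees of freedom. Adjusted p-values are Benjamini-Hochberg over all genes tested, and a gene was called below 0.05. In data simulated for this contrast (14455 genes, 200 of them changed) 103 genes were called and 2 of these were false, with 75 of 100 genes recovered at a log2 change of 1 and 26 of 100 at 0.5. Equal numbers of genes were raised and lowered there, all with a mean of at least 50, and no shift in composition was simulated. The share of false calls in the real contrast was therefore not measured. Figures and tables were made with Python 3.11.15, pandas 2.3.3, NumPy 2.4.6 and matplotlib 3.10.9. Promoter windows and their builds came from RefSeq (GRCm38.p6).

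The comparison, the 47 gene lists and the named genes were chosen with earlier results of these data known. Named genes were Mtdh, the 12 largest rises and falls (mean of at least 50, no overlap), up to 5 called members per list by smallest p, up to 10 genes by smallest p for the genotype difference, and a set of anchor genes, some of which are not reported here. Genes named after their values were seen are Abcc4, Angptl4, Ass1, Cd274, Cebpa, Clec4f, Cxcl1, Cyp2b10, Cyp2e1, Cyp3a11, F9, Fgb, Gcgr, Hmgcs1, Ifit1, Igf1, Il6, Irgm1, Isg15, Orm1, Otc, Plg, Ppara, Rsad2, Scd1, Slc10a1, Srebf1 and Ttr. Adgre1, Cd5l and the genes of the closing section on other observations were also named after their values were seen. Alternatives were other pseudocounts, filters and scalings, a fit of the compared groups alone, a replicate block, library weights and leaving out each library.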

Additional observations from a re-analysis of the deposited data

Results flagged for a closer look

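The following genes had a called genotype difference in the CM against TNFa contrast. The test was limma's, of the difference of the log2 changes (KO minus WT), adjusted over all genes tested. Whether each gene kept this call without 1 library or under other settings was not tested. The adjusted p was nearest the threshold for Cldn4 (0.0464) and Nnt (0.0278). The difference was 1.25 for Rpl36a, 0.90 for Acaa2, 0.84 for Fabp5, 0.76 for Echs1, 0.74 for Cd81 and 1.33 for Ankrd23, each with CM higher than TNFa in KO and lower in WT. For Slc25a1 (0.65) both genotypes had a higher value with CM, and for Cldn4 (0.56) a lower one. The difference was -0.85 for Ep400, which was lower with CM in KO. Cyp2b10 had a difference of 0.62. For 1 of the overlapping gene models of Nnt it was 4.83, a size that is uncertain because the models share reads.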

How the results depend on the processing

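For CM KO against TNFa KO the count of called genes stayed within 1.5 times of 1835 under every alternative run except equal totals, which gave 2784 called and 1906 lower. Leaving out 1 library gave 1409 to 1525 called. The replicate block gave 1896, and same-numbered libraries did not deviate together (r between -0.021 and 0.019 for the KO pairs), so the numbers are not taken as pairs. For CM WT against TNFa WT a fit of these groups alone gave 904 called, 579 higher and 325 lower, and leaving out 1 library gave 453 to 880 lower.

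The genotype difference was called for 44 genes with no filter (40 positive, 4 negative), 55 with quantile normalization (43 positive), 42 with equal totals (26 and 16), 49 in a fit of only the groups compared (44 and 5), 151 with the replicate block (135 and 16) and 207 with library weights (163 and 44). Negative differences numbered 5 with a pseudocount of 0.5 and 14 when only genes averaging 50 or more were tested. Leaving out 1 library gave 32 to 348 in all, 29 to 301 positive and 2 to 47 negative. The causes were not tested, nor which of the named genes kept this call.

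Among genes named but not called, log2 changes reversed with equal totals for Mtdh (-0.03), Tnfrsf1b (-0.09), Nfkbia (-0.11), Cxcl1 (-0.06), Ppara (-0.01), Clec4f (-0.08, and -0.05 with library weights) and the second Nnt model (-0.15). Alb, which was called, was at 0 with quantile normalization, which sets the highest gene equal in every library. Among the genes named, the replicate block ended the call of Il6 (adjusted p = 0.067) and of no other. Without 1 library the ranges were -0.02 to 0.23 for Mtdh, -0.19 to 0.89 for Tnf, 0 to 0.13 for Tnfrsf1b, -0.01 to 0.14 for Nfkbia, -0.15 to 0.04 for Isg15, -0.32 to 0.37 for Clec4f and -0.17 to 0.29 for the second Nnt model.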

Other observations

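The next 4 genes, which act in nucleolar ribosome assembly, were picked because they were lower in CM KO than in TNFa KO and are no tested list. Ncl, which encodes nucleolin, was at 7052, 7213 and 6185 in CM KO and 9442, 9687 and 9158 in TNFa KO (log2 fold change -0.47 ± 0.08 SE, limma adjusted p = 8.39e-05). Nop58, a core protein of small nucleolar ribonucleoproteins, was at 1953, 1736 and 2103 in CM KO and 2898, 3220 and 2693 in TNFa KO (-0.61 ± 0.10, adjusted p = 3.68e-05). Ddx21, a nucleolar helicase, fell by 0.56 and Nop2, an RNA methyltransferase, by 0.61. The groups did not overlap for these 4 genes.

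Other metabolic genes outside the lists, also picked by their values, moved by more. Sord, sorbitol dehydrogenase, was at 13023, 12957 and 12257 in CM KO and 5555, 5508 and 5515 in TNFa KO (1.21 ± 0.08, adjusted p = 4.87e-12). Slc25a47, a mitochondrial carrier of liver, rose by 1.61 ± 0.13 and Upp2, a uridine phosphorylase, by 1.47 ± 0.12. Mat2a, the methionine adenosyltransferase of dedifferentiated and non-hepatic cells, was at 5706, 5348 and 5702 in CM KO and 9248, 9238 and 10236 in TNFa KO (-0.78 ± 0.09, adjusted p = 2.28e-07). Ppif, cyclophilin D of the mitochondrial permeability pore, fell by 0.89.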
